A study of Mus musculus with 8 samples.

Results

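The nuclear genes of the mitochondrial respiratory chain were examined in epithelial cells isolated from the mouse small intestine. The members were taken by name: genes whose current symbol starts with Nduf, the genes Sdha, Sdhb, Sdhc and Sdhd, and genes whose symbol starts with Uqcr, Cox4i, Cox5, Cox6, Cox7, Cox8 or Atp5. A gene had to have a probe set that names it alone, where a probe set is the group of array probes summarised into 1 value. This gave 89 of 19938 genes. The same names cover 96 protein-coding genes in RefSeq, and the others were not analysed here. By their known place, 34 members encode subunits of complex I, 7 encode complex I assembly factors, 4 belong to complex II, 8 to complex III, 17 to complex IV and 17 to complex V. Ndufa4 and Ndufa4l2 are counted apart, because they carry a complex I name although Ndufa4 is known as a complex IV subunit.

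The respiratory chain sits in the inner mitochondrial membrane. Complexes I and II take electrons from NADH and succinate and pass them to coenzyme Q, complex III hands them to cytochrome c, and complex IV transfers them to oxygen. Complexes I, III and IV pump protons while doing so, and complex V, the ATP synthase, uses the returning protons to make ATP. In the intestine, absorptive enterocytes spend much of this ATP on nutrient and ion transport, and the crypt cells that replace them also carry mitochondria.

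The study asked what lowering YAP and TAZ, the coactivators restrained by the Hippo pathway, does to gene expression in this epithelium. All mice were male ICR mice, an outbred stock, aged 8 weeks, and the epithelium was taken 4 days after transfection of the small intestine in vivo. Intestine given an siRNA against GFP (siGFP, n = 3) was the control for intestine given siRNAs against YAP and TAZ (siYAP/TAZ, n = 3). A plasmid expressing an shRNA against LacZ was given to 1 intestine (shLacZ, n = 1), the control for 1 that received plasmids for shRNAs against YAP and TAZ (shYAP/TAZ, n = 1). The labels assign a control array to each of the 4 arrays labelled as knockdowns, without saying what the arrays of such a pair share, and these are called siRNA pairs 1 to 3 and the shRNA pair. Separate mice are not named for the arrays of a group, so the spread behind each p-value is that between these samples and may be technical in part or whole. The labels do not say which epithelial cells took up the nucleic acids.

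Values are log2 intensities after quantile normalization, and a difference is the array or group labelled with YAP/TAZ minus its control. Deposited intensities had medians per array between 76.4 and 95.5, and Pearson's r between arrays across genes lay between 0.765 and 0.963. The targeted genes were not lower beyond the spread between arrays (Yap1 -0.12, SE 0.32; Wwtr1, which encodes TAZ, -0.28, SE 0.36; limma adjusted p = 1 for both), and groups keep the names of their labels. The Yap1 differences were 0.25, -0.87 and 0.27 in siRNA pairs 1, 2 and 3 and -0.09 in the shRNA pair. For Wwtr1 they were -0.55, 0.58, -0.86 and 0.06, so neither target was lower in every pair. The epithelial genes Epcam, Vil1 and Cdh1 stood at percentile 99.8, 99.8 and 99.0 of all genes by mean level. The arrays also formed 2 sets by their highest deposited intensity, 11959 to 15713 in the arrays of siRNA pair 1 and the shRNA pair and 18731 to 20064 in those of siRNA pairs 2 and 3. What set them apart is not given in the labels. Each set holds the same number of control arrays and arrays labelled YAP/TAZ, and each pair lies within 1 set, so differences within pairs are also differences within sets.

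The promoters of the members were read from RefSeq (GRCm38.p6) because many respiratory chain genes are known to be driven by the factors NRF1 and GABP, an ETS family protein. Promoter windows matched 73 of the 89 members, with 78 windows, and the 250 bases before the start were searched on both strands. Atp5c1, Atp5d, Atp5j, Ndufa5 and Ndufa7 had 2 windows each, both counted. The 2 windows of Ndufa5 overlap and both have an NRF1 match. The NRF1 motif (GCGC, any base, TGCGC) was found in 14 of the 78 windows (17.9%), against 3.74% of all windows and 5.63% of the windows of measured genes. For the ETS motif CCGGAAG it was 13 of 78 (16.7%), against 6.91% of all windows and 9.41% of those of measured genes. The YY1 motif AAGATGGCG was found in 1 window (1.28%, all windows 0.606%) and the ERR motif AAGGTCA in 4 (5.13%, all windows 4.08%). The motifs share end letters, so matches of different motifs can overlap at their ends, and a window was counted whatever its number of matches. The stretches below run 5′ to 3′ on the strand of the gene, which is the minus strand for all of them, with the NRF1 and ETS matches in capitals. All of the stretches shown hold an NRF1 match. Sdhd, Ndufa5 and Sdha are members whose values in all 8 arrays are given in the results, and Atp5h and Cox6a1 were chosen because both motifs occur there. Other members whose values are given, such as Ndufv1 and Uqcr10, had a window without an NRF1 match and are not shown.
Sdhd, chr9:50603874-50603943: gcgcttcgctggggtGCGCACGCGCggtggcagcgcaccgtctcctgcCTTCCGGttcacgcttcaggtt
Ndufa5, chr6:24527692-24527731: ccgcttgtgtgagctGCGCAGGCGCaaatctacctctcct
Sdha, chr13:74350241-74350353: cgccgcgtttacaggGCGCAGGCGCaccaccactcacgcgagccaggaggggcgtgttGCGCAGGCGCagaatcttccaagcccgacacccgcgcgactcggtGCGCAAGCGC
Atp5h, chr11:115419936-115420075: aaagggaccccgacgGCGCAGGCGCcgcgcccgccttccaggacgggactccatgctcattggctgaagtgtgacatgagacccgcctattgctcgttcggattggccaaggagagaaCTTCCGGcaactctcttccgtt
Cox6a1, chr5:115348959-115349135: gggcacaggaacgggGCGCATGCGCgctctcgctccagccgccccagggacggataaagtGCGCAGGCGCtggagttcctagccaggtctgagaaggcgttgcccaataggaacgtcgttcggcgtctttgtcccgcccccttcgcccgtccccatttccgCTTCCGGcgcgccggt

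No respiratory chain gene passed the threshold in the siRNA arm. The 3 siYAP/TAZ arrays were compared with the 3 siGFP arrays by limma with Benjamini-Hochberg adjustment over all 19938 genes. At an adjusted p under 0.05, 0 of 89 members and 0.0% of all genes passed, and all members had an adjusted p of 1. Unadjusted member p-values ran from 0.0622 to 0.985, so 0 members had an unadjusted p under 0.05, a limit met by 1.19% of all genes. In the mean, 53 members stood higher in siYAP/TAZ and 36 lower, against 46.4% and 53.6% of all genes. The median difference was 0.04 for the members and -0.02 for all genes, and the members ran from -0.38 for Cox7a1 to 0.71 for Ndufa5. Leaving out siGFP 3 or siYAP/TAZ 1 brought the number of members that stood higher to 31 or 35. Because tissue was measured in bulk, fewer cells of a type and less RNA per cell cannot be told apart.

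In siRNA pairs 2 and 3 and the shRNA pair, in contrast, most members shared a direction, which was not the same in all of these pairs. In siRNA pair 1 the shift was small and less shared. Only 6 of 17 members of complex IV and 7 of 17 of complex V stood higher there. The median member stood higher by 0.09 in siRNA pair 1 and by 0.58 in siRNA pair 3, and it differed by -0.42 in siRNA pair 2 and -0.30 in the shRNA pair. The medians of all genes in the same pairs lay between -0.05 and 0.02. In siRNA pair 3, 81 of 89 members (91.0%) stood higher, against 45.5% of all genes. In siRNA pair 2, 19 members (21.3%) stood higher, against 51.1% of all genes. In siRNA pair 1 the number was 56 (62.9%, all genes 47.0%), and in the shRNA pair it was 21 (23.6%, all genes 47.8%). A pair holds 1 array a side, so these are descriptions without a test. With a limit of 1.5-fold, 43 members lay above it in siRNA pair 3 (8.92% of all genes did), and 3 below it (9.21%). In siRNA pair 2, 31 lay below that limit (21.1% of all genes) and 1 above it (18.4%). In the shRNA pair 15 members lay below that limit (8.46% of all genes) and 1 above it (5.62%), and in siRNA pair 1 it was 2 below (8.73%) and 3 above (7.56%).

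**Figure D1:**
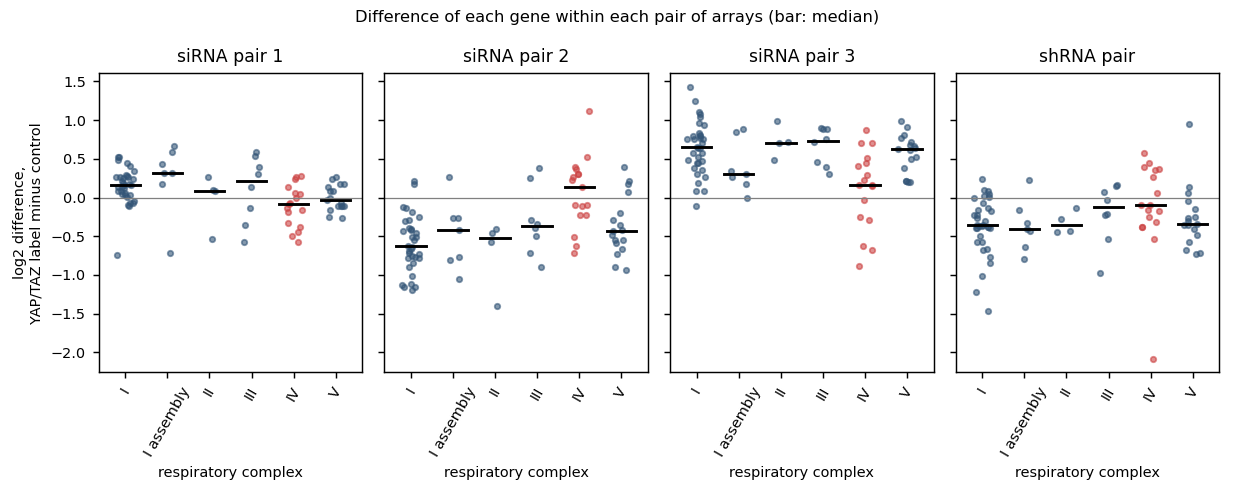
Log2 difference of each gene (vertical axis, array labelled YAP/TAZ minus its control) by respiratory complex (horizontal axis), in 1 panel for each of the 4 pairs of arrays. Ndufa4 and Ndufa4l2 are not plotted. Points are genes, bars are medians, and complex IV is in red; in siRNA pair 2 the complex I median is -0.63 and the complex IV median 0.14, and in siRNA pair 3 they are 0.65 and 0.16.

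A control array held the lowest values of many members. For 44 of 89 members (49.4%) the lowest of the 8 values was in siGFP 3, a control array, where 12.9% of all genes had theirs. For 13 members (14.6%) the lowest value was in shYAP/TAZ 1, against 8.97% of all genes, and for 14 (15.7%) it was in siYAP/TAZ 2, a smaller share than the 19.4% of all genes. The highest value was in shLacZ 1 for 23 members (8.32% of all genes), in siYAP/TAZ 1 for 22 (18.2%) and in siYAP/TAZ 3 for 19 (11.4%). Measured from each gene's mean over the 8 arrays, the median member stood at 0.10 in siGFP 1, 0.10 in siGFP 2 and -0.48 in siGFP 3. It stood at 0.21 in siYAP/TAZ 1, -0.28 in siYAP/TAZ 2 and -0.05 in siYAP/TAZ 3, and at 0.28 in shLacZ 1 and -0.03 in shYAP/TAZ 1. The siGFP and siYAP/TAZ arrays overlapped on this scale, with the lowest array of all among the controls.

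**Figure D2:**
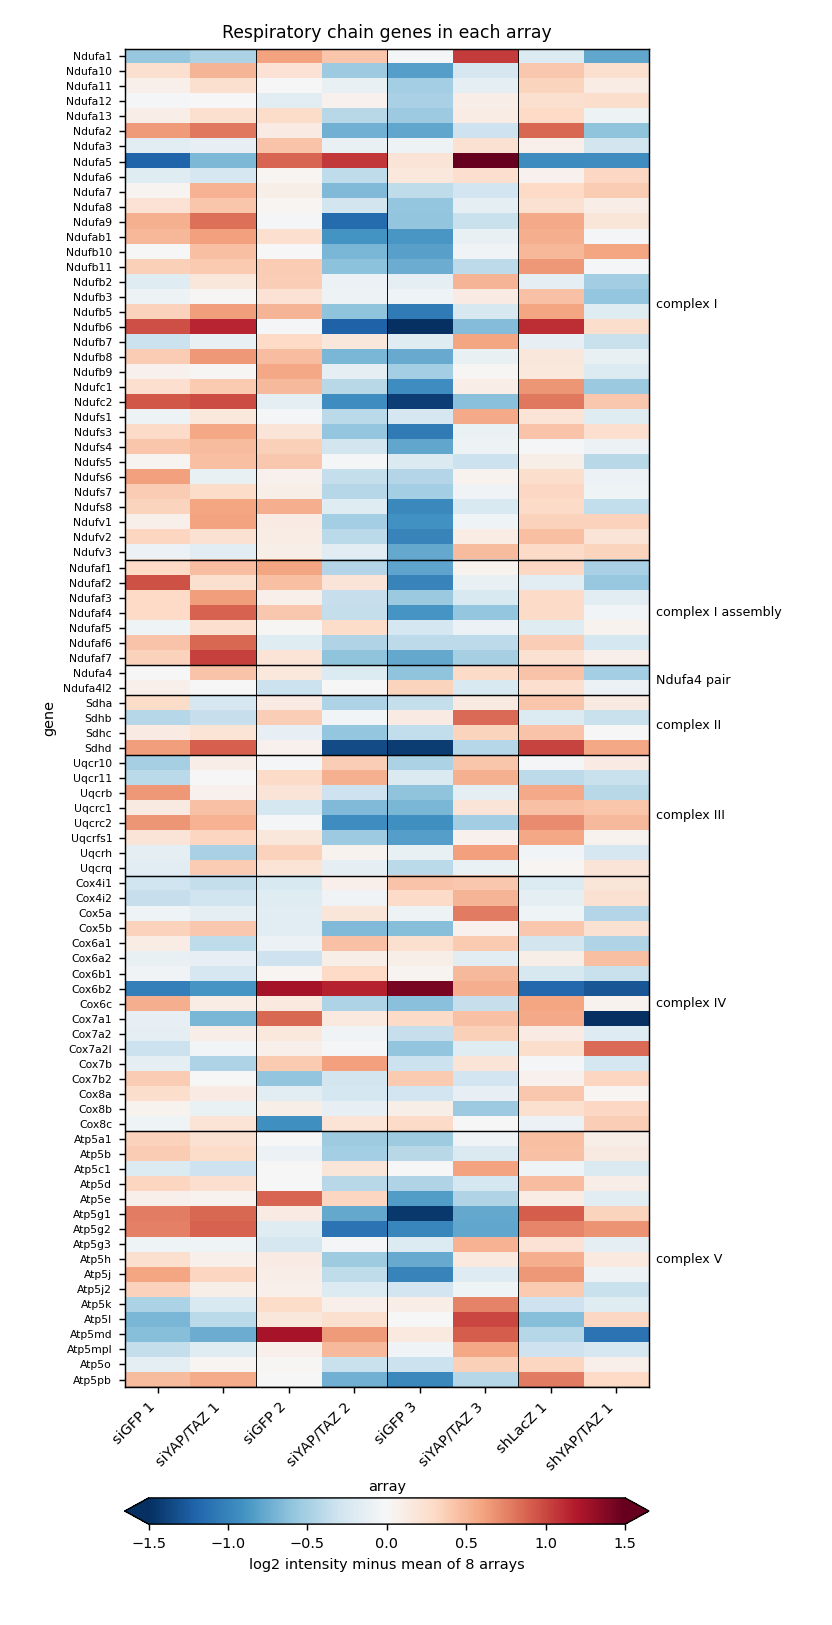
Each row is 1 of the 89 genes, ordered by complex, and each column is 1 of the 8 arrays, with the arrays of a pair side by side. Colour gives the log2 intensity minus the gene's mean over the 8 arrays; the siGFP 3 column is the bluest, holding the lowest value of 44 genes, and 4 of those 44 belong to complex IV.

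Complex I showed the widest swing between pairs among the complexes with 8 or more members. Its median was 0.16, -0.63 and 0.65 in siRNA pairs 1, 2 and 3 and -0.36 in the shRNA pair, and 28, 2, 33 and 7 of its 34 subunits stood higher. Its median in the siRNA arm was 0.03, with 19 of 34 higher in the mean. Ndufv1, the subunit that binds the flavin which accepts electrons from NADH, had values of 8.44, 8.49 and 7.46 in siGFP 1 to 3 and 8.97, 7.86 and 8.30 in siYAP/TAZ 1 to 3, and 8.71 in both shRNA arrays. The groups overlapped, and the mean difference was 0.24 (exact two-sided permutation p = 0.7, where 0.1 is the smallest p that 3 arrays against 3 allow). Its 95% confidence interval was -1.05 to 1.54. The confidence intervals given here are t intervals from the variances of the 2 groups, not from the permutations. Ndufs1, the largest iron-sulfur subunit, had values of 7.99, 8.05 and 7.82 in siGFP and 8.23, 7.66 and 8.63 in siYAP/TAZ, with 8.27 in shLacZ 1 and 7.89 in shYAP/TAZ 1. Its siGFP arrays lay close together, inside the range of the siYAP/TAZ arrays (difference 0.22, exact two-sided permutation p = 0.5; 95% confidence interval -0.58 to 1.02). Of the 6 measured core subunits that carry the electrons, 4, 0 and 6 stood higher in siRNA pairs 1, 2 and 3. In the shRNA pair Ndufv1 differed by 0.00 and the other 5 stood lower.

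Among the accessory subunits of complex I, Ndufa12 (Entrez Gene 66414) was the only one whose siRNA groups did not overlap. It encodes a subunit of the matrix arm and had values of 9.03, 8.89 and 8.56 in siGFP and 9.04, 9.11 and 9.14 in siYAP/TAZ. The highest control and the lowest siYAP/TAZ array lay 0.01 apart in siRNA pair 1, and the mean difference was 0.27 (SE 0.28; limma, adjusted p = 1). In the shRNA pair the values were 9.28 and 9.31. Across all members 2 stood higher without overlap, Ndufa12 and Uqcr10, where 1.6% of all genes did, and 1 stood lower, Cox8b, where 2.99% did.

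Ndufa5, another matrix arm subunit, had the largest mean difference of all members at 0.71 (SE 0.68). Its values were 6.03, 8.11 and 7.42 in siGFP and 6.56, 8.29 and 8.85 in siYAP/TAZ, with 6.29 in shLacZ 1 and 6.30 in shYAP/TAZ 1. The gene stood between 6.03 and 6.56 in the first set of arrays and between 7.42 and 8.85 in the other, so its spread within each group followed the set of arrays. Ndufa5 was higher in all 4 pairs, by 0.53, 0.18, 1.43 and 0.01. The set was not tested as a cause of its difference within a pair.

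Ndufb6, Ndufc1 and Ndufc2 encode subunits of the membrane arm, and Ndufa2 a subunit of the matrix arm. Ndufb6 had values of 9.85, 8.86 and 7.30 in siGFP and 10.03, 7.67 and 8.24 in siYAP/TAZ, with 9.99 in shLacZ 1 and 9.15 in shYAP/TAZ 1. It spanned 2.73 over the 8 arrays, and its group means of 8.67 ± 1.29 (SD, n = 3) and 8.65 ± 1.23 (SD, n = 3) differed by -0.02 (SE 0.74). Ndufc2 spanned 2.41 in the same manner, with a mean difference of 0.02 (SE 0.67). Both genes stood higher in the first set of arrays than in the other. Ndufb6 lay at 9.15 to 10.03 against 7.30 to 8.86, and Ndufc2 at 9.87 to 10.45 against 8.05 to 9.33. Ndufa2 and Ndufc1 were the members that stood lowest in the shRNA pair after Cox7a1, by -1.47 and -1.22. Ndufa2 went from 7.91 to 6.44 there and Ndufc1 from 8.86 to 7.64, and both had siRNA group means within their SE of each other (-0.07, SE 0.49; 0.09, SE 0.43). The 7 assembly factors of complex I, which build the complex without staying in it, had medians of 0.32, -0.42, 0.30 and -0.41 in siRNA pairs 1, 2 and 3 and the shRNA pair. For 6 of these 7 the lowest array was siGFP 3.

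Complex II has no subunit encoded in mitochondrial DNA and also serves as an enzyme of the TCA cycle. Its 4 genes stood lower in siRNA pair 2 and in the shRNA pair without exception (medians -0.52 and -0.36), and higher in siRNA pair 3 (median 0.71). Sdha, the flavoprotein that oxidises succinate, had values of 10.28, 10.13 and 9.65 in siGFP and 9.75, 9.55 and 10.14 in siYAP/TAZ, with 10.42 in shLacZ 1 and 10.14 in shYAP/TAZ 1. Its groups overlapped (difference -0.21, exact two-sided permutation p = 0.5; 95% confidence interval -0.92 to 0.51). Sdhb, the iron-sulfur subunit, differed by 0.14 (exact two-sided permutation p = 0.8; 95% confidence interval -1.05 to 1.33). Sdhd, a membrane anchor, was among the most variable members: 9.53, 8.96 and 7.48 in siGFP, 9.80, 7.56 and 8.47 in siYAP/TAZ, 9.91 in shLacZ 1 and 9.48 in shYAP/TAZ 1. It stood at -1.40 in siRNA pair 2 and at 0.99 in siRNA pair 3, and the group means differed by -0.05 (SE 0.66). Sdhd lay at 9.48 to 9.91 in the first set of arrays and at 7.48 to 8.96 in the other.

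Complex III held the member with the smallest p in the siRNA arm. Uqcr10 (Entrez Gene 66152), a small accessory subunit, had values of 9.12, 9.60 and 9.14 in siGFP and 9.71, 9.98 and 10.03 in siYAP/TAZ, with 9.59 in shLacZ 1 and 9.74 in shYAP/TAZ 1. All 3 siYAP/TAZ arrays lay above all 3 siGFP arrays, with means of 9.91 ± 0.17 (SD, n = 3) and 9.28 ± 0.27 (SD, n = 3). The difference of 0.62 (SE 0.29), or 1.54-fold, had a limma p of 0.0622 and an adjusted p of 1, so it did not pass. Leaving out any 1 of the 6 arrays left it between 0.54 and 0.78. Uqcr11, another small accessory subunit, stood higher in all 4 pairs on its brighter probe set, by 0.40, 0.25, 0.75 and 0.07. Its other, dimmer probe set gave 0.23, -0.11, 0.28 and -0.31, so the direction in siRNA pair 2 and the shRNA pair depends on the probe set. The core subunit Uqcrc1 and the Rieske iron-sulfur protein Uqcrfs1, which passes electrons towards cytochrome c, differed by 0.26 (exact two-sided permutation p = 0.5; 95% confidence interval -0.88 to 1.4) and 0.10 (exact two-sided permutation p = 0.7; 95% confidence interval -1.06 to 1.26). Neither stood higher in siRNA pair 2, where they lay at -0.39 and -0.71. All 8 genes of complex III stood higher in siRNA pair 3, with a median of 0.73.

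The medians of complex IV spanned the narrowest range over the 4 pairs. They were -0.08, 0.14 and 0.16 in siRNA pairs 1, 2 and 3 and -0.10 in the shRNA pair, with 6, 9, 11 and 7 of 17 members higher. The 72 other members include Ndufa4 and Ndufa4l2, which were counted apart. The medians of these 72 were 0.13, -0.49, 0.64 and -0.34, with 50, 10, 70 and 14 higher. Ndufa4, known as a complex IV subunit, differed by 0.41, -0.36, 0.91 and -0.93, with the signs of those medians, and was lowest in siGFP 3. siGFP 3 was the lowest array for 4 of 17 complex IV genes and for 40 of the 72 other members. Complex IV includes 7 isoforms known from particular tissues, and without them its 10 members had medians of -0.11, 0.07, 0.43 and -0.21, so the gap to the other complexes in siRNA pair 3 was smaller. Of these 10, 9 stood higher in siRNA pair 3 and 4 had their lowest value in siGFP 3 (40.0%). The difference between complex IV and the rest was not tested.

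Cox4i1, the widely expressed form of a regulatory subunit, had values of 9.90, 9.97 and 10.63 in siGFP and 9.84, 10.28 and 10.60 in siYAP/TAZ, with 9.99 in shLacZ 1 and 10.38 in shYAP/TAZ 1. Its highest array was siGFP 3, the array in which most complex I genes were lowest. The group difference was 0.07 (exact two-sided permutation p = 1.0; 95% confidence interval -0.82 to 0.96). Cox5b, a zinc-binding subunit, followed the other complexes instead, with 9.97 in siGFP 3 and 9.94 in siYAP/TAZ 2 as its lowest values and 0.71 as its difference in siRNA pair 3. Its mean difference was 0.09 (exact two-sided permutation p = 0.8; 95% confidence interval -1.1 to 1.27). Cox6c, also a small nuclear subunit, stood lower in siRNA pairs 1 and 2 and in the shRNA pair, by -0.44, -0.62 and -0.54, and higher in siRNA pair 3 by 0.29. Cox7a2l, which helps join complexes III and IV into supercomplexes, differed by 0.20 (SE 0.30) in the siRNA arm. It had the second largest positive difference of all members in the shRNA pair, going from 8.53 to 9.11.

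Cox7a1 (Entrez Gene 12865), the form of subunit 7a known from heart and skeletal muscle, had the largest difference of any member in the shRNA pair. It went from 9.70 in shLacZ 1 to 7.63 in shYAP/TAZ 1, 4.22-fold lower, and with 1 array a side this has no replicate check. In the siRNA arm its values were 9.01, 9.99 and 9.41 in siGFP and 8.44, 9.27 and 9.57 in siYAP/TAZ. These groups overlapped, with means of 9.47 ± 0.49 (SD, n = 3) and 9.09 ± 0.59 (SD, n = 3), a difference of -0.38 (SE 0.40). Cox7a1 stood lower in siRNA pairs 1 and 2, by -0.57 and -0.72, and higher in pair 3 by 0.16. In the shRNA pair the 9 measured smooth and striated muscle genes had a median difference of 0.20, and 5 of 9 stood higher. Their median levels were -0.24 in shLacZ 1 and -0.14 in shYAP/TAZ 1, measured from each gene's mean.

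The other tissue isoforms did not share that difference. Cox8b (Entrez Gene 12869), known from heart and muscle, had values of 5.61, 5.64 and 5.64 in siGFP and 5.45, 5.43 and 5.01 in siYAP/TAZ. Its siYAP/TAZ values were lower than every siGFP value, with a difference of -0.34 (SE 0.28; limma, adjusted p = 1). In the shRNA pair Cox8b went from 5.80 to 5.86. At this low level the log2 scale may understate a change, because the deposited intensities do not go below about 16. Cox6b2, a form known from testis, stood between 5.94 and 6.33 in the first set of arrays and between 7.76 and 8.64 in the other, the widest gap between the sets among the members. Its difference in the siRNA arm was -0.28 (SE 0.72).

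Cox4i2, known from lung and induced by low oxygen, stood slightly higher in all 4 pairs, by 0.05, 0.14, 0.23 and 0.37, with a mean difference of 0.14 (SE 0.33). Cox6a2, a heart and muscle form, differed by 0.04 (SE 0.28), a sign that turned to -0.01 without normalization. The testis forms Cox7b2 and Cox8c differed by -0.25 (SE 0.35) and 0.37 (SE 0.36), and Ndufa4l2, another gene induced by low oxygen, by -0.12 (SE 0.30). Cox7b2 and Ndufa4l2 were about as dim as Cox8b, with mean levels of 5.25 and 5.67. Together the 8 tissue isoforms had medians of -0.05, 0.22, -0.42 and 0.16 in siRNA pairs 1, 2 and 3 and the shRNA pair, opposite in sign in each pair to the median of the 72 members outside complex IV, which include Ndufa4l2.

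**Figure D3:**
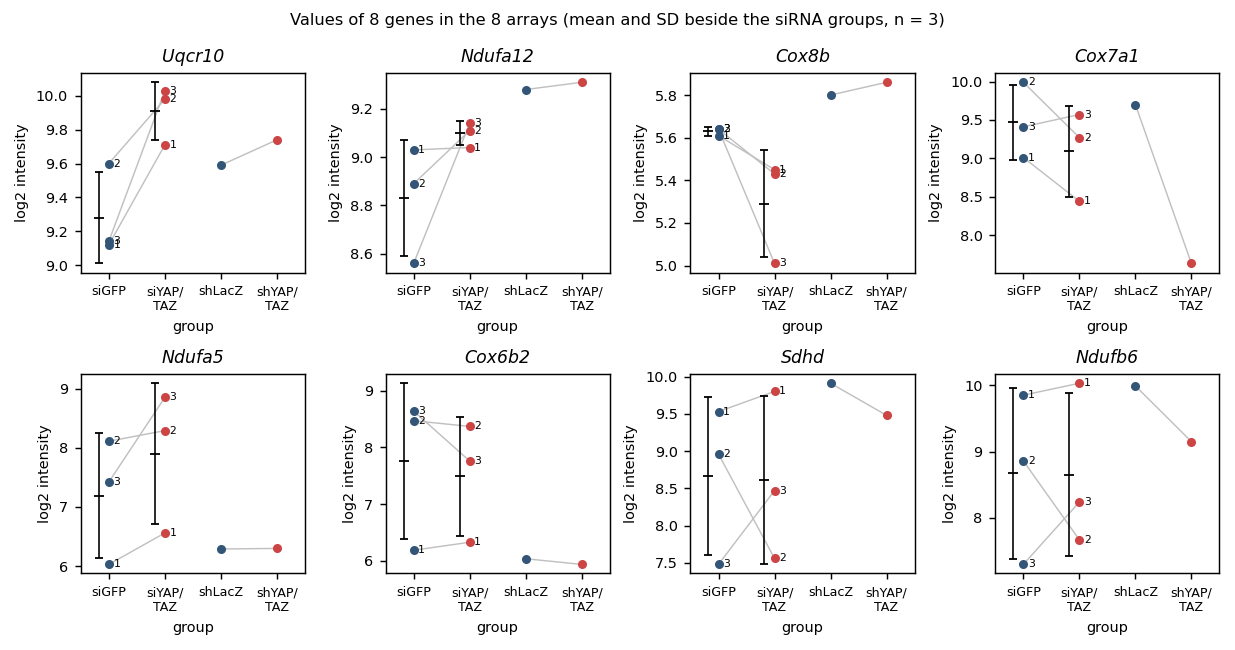
Log2 intensity (vertical axes) of 8 genes in the 8 arrays by group (horizontal axes), with numbers for the siRNA replicates, grey lines joining the arrays of a pair, and the mean and SD beside the siRNA groups. Uqcr10 and Ndufa12 show all siYAP/TAZ points above the siGFP points, Cox8b shows them below, and Sdhd and Ndufb6 cross, with pair 2 running down and pair 3 running up.

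Complex V, the ATP synthase, had medians of -0.03, -0.43 and 0.63 in siRNA pairs 1, 2 and 3 and -0.34 in the shRNA pair, and all 17 members stood higher in siRNA pair 3. The median of -0.03 turned to 0.01 with arrays centred on the 75th percentile. Atp5a1 and Atp5b encode the alternating subunits of the catalytic head. Atp5a1 had values of 11.04, 10.70 and 10.16 in siGFP and 10.93, 10.16 and 10.65 in siYAP/TAZ, with 11.15 in shLacZ 1 and 10.79 in shYAP/TAZ 1. Its difference of -0.06 (exact two-sided permutation p = 0.8; 95% confidence interval -1.01 to 0.9) turned to 0.01 with arrays centred on the 75th percentile. Atp5b differed by -0.11 (exact two-sided permutation p = 0.7; 95% confidence interval -1.02 to 0.8).

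Atp5l, which encodes subunit g of the membrane part, stood higher in all 4 pairs, by 0.27, 0.07, 0.99 and 0.95. Its values were 8.42, 9.27 and 9.11 in siGFP and 8.69, 9.34 and 10.10 in siYAP/TAZ, with 8.46 in shLacZ 1 and 9.41 in shYAP/TAZ 1. It had the largest positive difference of any member in the shRNA pair, 1.93-fold higher, while 14 of the 17 complex V genes stood lower there. The 6 probe sets of Atp5l gave differences in the siRNA arm from 0.42 to 0.47, and probe sets so alike may share probes or transcripts. Atp5mpl, a small protein bound to the membrane part, also stood higher in all 4 pairs, by 0.18, 0.40, 0.63 and 0.06.

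A model over all 8 arrays, with the pair as a block, tested the mean difference of each gene over the 4 pairs. It called 0 of 89 members and 0.0201% of all genes at a limma adjusted p under 0.05. Atp5l had the smallest p among the members, with a difference of 0.57 (SE 0.22; limma, adjusted p = 0.579). Cox7a1 followed at -0.80 (SE 0.32; limma, adjusted p = 0.593) and Uqcr10 at 0.50 (SE 0.20; limma, adjusted p = 0.595). These 3 of 89 had an unadjusted limma p under 0.05, against 7.49% of all genes. A mean over pairs does not require 1 direction, and Cox7a1 stood at -2.08 in the shRNA pair and at 0.16 in siRNA pair 3. In all 4 pairs 8 members stood higher, where 6.02% of all genes did, and 0 stood lower, where 8.95% did. The 8 were Atp5l, Atp5mpl, Cox4i2, Ndufa12, Ndufa5, Ndufaf5, Uqcr10 and Uqcr11, each by its brightest probe set. The other probe set of Uqcr11 stood lower in siRNA pair 2 and the shRNA pair, and 1 of the 6 of Atp5l differed by 0.00 in siRNA pair 2. Ndufaf5, a complex I assembly factor, stood higher by 0.32, 0.26 and 0.17 in siRNA pairs 1, 2 and 3 and by 0.23 in the shRNA pair. Its mean level over the 8 arrays was 5.45, about as low as that of Cox8b (5.55), where the log2 scale may understate a change.

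The motif matches in the promoter stretches describe letters, not sites shown to be bound. The 13 members with an NRF1 match had medians of 0.16, -0.42, 0.49 and -0.23 in siRNA pairs 1, 2 and 3 and the shRNA pair. The 60 members with a window and no match had medians of 0.10, -0.44, 0.69 and -0.31, so members with and without the motif ran the same way in each pair. Of the 12 complex IV windows 1 had an NRF1 match, that of Cox6a1, and of the 66 windows outside complex IV 13 did.

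Other genes of mitochondrial metabolism were described from lists. None of the genes in these lists passed the threshold in the siRNA arm (limma), and the glycolysis enzyme Hk2 (1.67, SE 0.60), named after its values were seen, was the only one with an unadjusted p under 0.05. The 17 measured TCA cycle enzymes had medians of 0.19, -0.47, 0.45 and -0.29 in siRNA pairs 1, 2 and 3 and the shRNA pair. Complex II to V assembly factors (29 measured) had 0.21, -0.47, 0.38 and -0.34, and the cytochrome c and coenzyme Q genes (13 measured) had 0.27, -0.46, 0.43 and -0.35. The 77 mitochondrial ribosomal protein genes, which translate the subunits encoded in mitochondrial DNA, had 0.48, -0.72, 0.32 and -0.27. These lists had the signs of the respiratory chain in every pair. Cytosolic ribosomal protein genes were taken by symbol (Rpl or Rps and a digit, and a few like them), which gave 71 genes. Some of these are not ribosomal proteins, among them the kinase genes Rps6ka3 and Rps6kb2 and the pseudogene Rps19-ps3. For the 71 together the medians were 0.23, -0.35, 0.07 and 0.23, so the shRNA pair ran the other way. Glycolysis enzymes (12 measured) had 0.28, -0.29, 0.31 and -0.07. The 14 regulators of mitochondrial gene expression had 0.08, -0.42, 0.29 and 0.04.

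Of the subunits encoded in mitochondrial DNA, COX2 of complex IV and ND3 of complex I were measured. COX2 had values of 12.18, 13.05 and 13.03 in siGFP and 11.33, 12.96 and 13.03 in siYAP/TAZ, with 12.20 in shLacZ 1 and 12.52 in shYAP/TAZ 1. ND3 had 11.95, 12.83 and 12.70 in siGFP and 11.12, 12.88 and 12.92 in siYAP/TAZ, with 11.84 and 12.08 in the shRNA arrays. Both were lowest in siYAP/TAZ 1, where the median nuclear member was above its own mean, and both lay higher in all arrays of siRNA pairs 2 and 3 than in the other arrays. Their differences in the siRNA arm were -0.31 (SE 0.50) and -0.18 (SE 0.52).

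Cell type markers moved between the same arrays. In siYAP/TAZ 2, siGFP 3 and siYAP/TAZ 3 the 11 measured mitotic genes had median levels of -1.19, -1.48 and -1.50, measured from each gene's mean, and between 0.50 and 1.36 in the other arrays. The 72 members outside complex IV stood at -0.37, -0.54 and -0.06 in those 3 arrays and between -0.06 and 0.30 in the others. The 10 stem cell markers stood at -0.66, -1.17 and -1.15 there and between -0.08 and 1.09 elsewhere. The 9 B and plasma cell markers stood at 2.19 in siYAP/TAZ 2, at 0.80 in siYAP/TAZ 3 and between -0.92 and -0.14 in the other arrays. The 12 enterocyte markers stood at 0.47 in siGFP 3 and 0.40 in siYAP/TAZ 3, and the 8 ileal genes at 1.10 and -0.92. The ileal median difference was -2.31 in siRNA pair 3 and 1.64 in siRNA pair 2, the opposite sign to the members in both. The 9 measured T cell markers had medians of -0.57, -0.42 and 1.04 in siRNA pairs 1, 2 and 3 and -0.08 in the shRNA pair, with 8 of 9 higher in siRNA pair 3. In the same pair the B and plasma cell markers had 9 of 9 higher (median 1.13) and the enteroendocrine markers 6 of 8 (median 0.42). The Paneth cell markers had 5 of 7 higher (median 0.35) and the proximal small intestine genes 5 of 7 (median 0.34). For the enterocyte markers it was 7 of 12 (median 0.11). Some lists did not rise in that pair. The epithelial markers had 0 of 8 higher (median -0.42), the goblet cell markers 0 of 7 (median -0.49) and the mitotic genes 4 of 11 (median -0.06). In the shRNA pair all 8 myeloid markers stood higher (median 0.85), where most members stood lower. The part of these lists in the respiratory chain values was not tested.

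**Figure D4:**
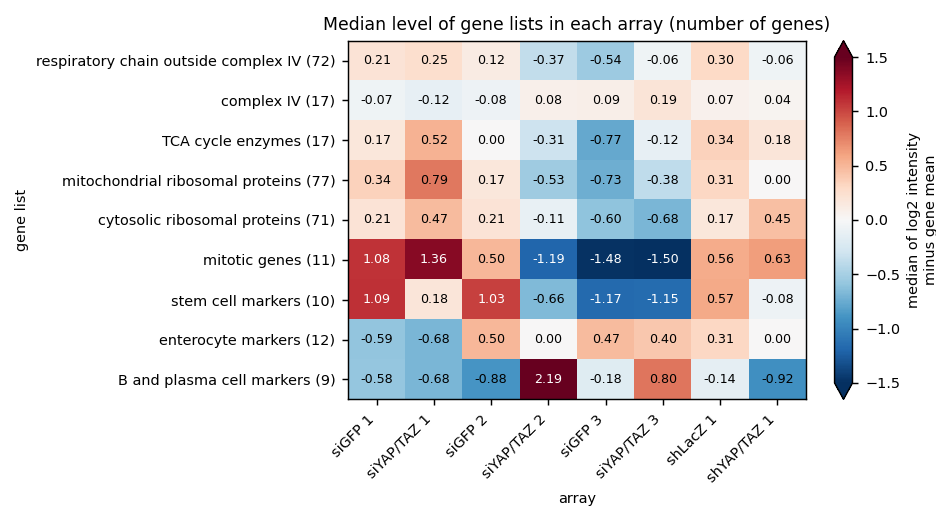
Median level of gene lists (rows, with the number of measured genes) in each array (columns), as log2 intensity minus each gene's mean over the 8 arrays, in colour and in print. The cytosolic ribosomal row was taken by symbol and includes some genes that are not ribosomal proteins. The respiratory chain outside complex IV is lowest in siGFP 3 at -0.54, as are the TCA cycle enzymes at -0.77 and the mitochondrial ribosomal proteins at -0.73. Complex IV, with its tissue isoforms, stays between -0.12 and 0.19. Without these isoforms, which is not a row here, its 10 members stood at -0.30 in siGFP 3 and 0.27 in siYAP/TAZ 3.

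The 2 sets of arrays were also compared for the members. The arrays of siRNA pairs 2 and 3 lay above all arrays of the other set for 9 members (14.4% of all genes) and below them for 19 (12.6% of all genes). Besides Cox6b2 and Ndufa5, the widest gaps were those of Atp5g2, a form of the membrane ring subunit, at 9.80 to 10.01 against 8.01 to 8.94, and Atp5md, a small membrane subunit, at 9.54 to 10.22 against 10.79 to 11.88. Both were named after their values were seen. Over the 8 arrays the median range of a member was 1.18 and that of a gene in general 1.13, and the median residual SD in the siRNA arm was 0.45 and 0.42.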

How the data were processed

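The authors deposited an intensity on a linear scale for each of 28853 probe sets on 8 Affymetrix arrays, hybridised with biotin-labelled material from total RNA, per the labels. Methods of background correction and summarisation were not given in the sources used here. Every array has its minimum just above 16, as an added constant would leave. Probe sets that name 1 gene (21789) were used, those with several genes (1621) or none listed (5443) were not, and symbols were updated through Entrez identifiers in RefSeq (GRCm38.p6). Intensities were put on the log2 scale and quantile normalized in limma 3.58.1 (R 4.3.3). A gene was represented by its brightest probe set; 17 members had more than 1, and 24 of their 25 further probe sets had the same sign in the siRNA arm. Within pairs 21, 22, 25 and 24 did (siRNA pairs 1 to 3, shRNA pair), and 4 genes had an opposite sign in some pair (Atp5md, Cox7b, Ndufb11, Uqcr11). No filter on dim genes was applied, so all 89 members were tested.

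Fits ran over all 19938 genes with lmFit and eBayes, with an adjusted p threshold of 0.05, and were tested on simulated data. A pass there required recovery only of changes larger than any member difference in the siRNA arm, at a reduced spread. It does not show the power at the spread between these arrays. Named subunits were also tested by exact permutation, and the confidence intervals beside those p-values are t intervals. The number of arrays limits the precision. The members and lists were chosen with earlier results of these data known. Named members are fixed anchor subunits, the 5 largest and 5 lowest differences, those whose groups do not overlap, those one way in 4 pairs, the extremes of the shRNA pair, the 5 widest ranges and the tissue isoforms. Same-numbered siRNA arrays had deviations that correlated at 0.755, -0.13 and 0.571, and siGFP 3 correlated with siYAP/TAZ 2 at 0.583. The siRNA arm was fitted without a block. The 4 pairs are those the labels assign, and values within them describe those arrays. Alternatives were the normalization, the constant, a filter on dim genes, the mean of probe sets, a block, the prior, array weights and leaving out each array.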

Additional observations from a re-analysis of the deposited data

Results flagged for a closer look

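Cox8b, a heart and muscle form of a complex IV subunit, differed in direction between the arms. It stood at 0.06 in the shRNA pair, while the siRNA pairs had -0.16, -0.22 and -0.63. The difference between the arms was not tested, since the shRNA arm has 1 array a side. Groups of 3 arrays or 1 array allow no test for a single outlying array.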

How the results depend on the processing

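No member passed in the siRNA arm or over the 4 pairs under any alternative run for those fits. Over all genes, the siRNA arm had 0 calls, 1 with the replicate number as a replicate block and 3 with the set of arrays as a block, an alternative chosen after seeing the data. Leaving out 1 array gave 0 to 13 calls, the 13 without siYAP/TAZ 1. The pair fit had 4 calls over all genes, 15 with arrays centred on the 75th percentile, 19 without normalization, 2 with 16 subtracted, 8 with dim genes left out and 0 with no replicate block. It had 1 to 26 calls when a pair was left out, 26 without siRNA pair 2. The number of members higher in the mean was 53 of 89, 33 with array weights and 31 to 71 when an array was left out. The median member difference then lay between -0.14 (without siGFP 3) and 0.23 (without siYAP/TAZ 2). By complex it lay between -0.22 and 0.25 for complex I, -0.30 and 0.26 for its assembly factors, -0.20 and 0.31 for II, -0.01 and 0.30 for III, -0.01 and 0.25 for IV and -0.28 and 0.21 for V. Differences near 0 changed sign for Atp5a1 (0.01) and Ndufb6 (0.01) with the 75th percentile and for Cox6a2 (-0.01) and Ndufc2 (0.00) without normalization. With 1 array left out the difference spanned 0 for these genes: Atp5a1 (-0.29 to 0.16), Atp5b (-0.32 to 0.11), Cox4i1 (-0.11 to 0.30), Cox4i2 (-0.09 to 0.32), Cox5b (-0.16 to 0.39), Cox6a2 (-0.05 to 0.15), Cox6b2 (-1.07 to 0.30), Cox6c (-0.59 to 0.01), Ndufa2 (-0.51 to 0.25), Ndufa4l2 (-0.29 to 0.03), Ndufb6 (-0.71 to 0.57), Ndufc1 (-0.34 to 0.37), Ndufc2 (-0.59 to 0.59), Ndufs1 (-0.01 to 0.48), Ndufv1 (-0.09 to 0.50), Sdhb (-0.21 to 0.38), Sdhd (-0.64 to 0.48) and Uqcrfs1 (-0.23 to 0.34). The cause of these changes was not tested. Centring on the 75th percentile moved the median of all genes in siRNA pair 2 to 0.13. No normalization moved it to -0.12 in siRNA pair 1 and to -0.14 in siRNA pair 3. Without normalization 37.0% of all genes stood higher in siRNA pair 3, and the median member difference there was 0.55. Under these scalings and with 16 subtracted, the medians of the complexes outside the Ndufa4 pair and of the metabolic lists kept their sign in every pair, except that of complex V in siRNA pair 1.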
